A study of Homo sapiens with 4 samples.

Results

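Acetylcholine acts through receptors of different design, and 10 genes of this system were followed after knockdown of the histone demethylase LSD1. They were the nicotinic receptor subunits CHRNA2, CHRNA3, CHRNA5, CHRNB2 and CHRNB4, the muscarinic receptors CHRM1, CHRM2 and CHRM3, the synthetic enzyme CHAT and the degrading enzyme ACHE. Every probe set that the platform annotation assigned to exactly 1 symbol, that symbol being one of these genes, was kept. This gave 20 of the 54613 probe sets that were not controls, and all 10 genes were represented. The cells were SH-SY5Y, an established human neuroblastoma line with neuronal character. One group received a control siRNA (siControl, 2 arrays) and the other an siRNA directed at LSD1 (siLSD1, 2 arrays). The submitters describe the transfections of each group as independent, all of them in the same cell line, and a knockdown by siRNA leaves part of the transcript in place. No age, time after transfection or further agent is given in the sources used here. All levels are log2 signals after quantile normalization, and all differences are siLSD1 relative to siControl. With bulk RNA, fewer cells that express a gene and less RNA per cell cannot be told apart.

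Nicotinic receptors are ion channels of several subunits around a central pore, in which alpha subunits carry the main part of the binding site and beta subunits complete it. The channels that contain CHRNA3 and CHRNB4 mediate fast transmission in autonomic ganglia, the tissue of the sympathetic lineage from which neuroblastoma arises. Muscarinic receptors couple to G proteins, with CHRM1 and CHRM3 acting on phospholipase C and CHRM2 inhibiting adenylyl cyclase. Choline acetyltransferase (CHAT) makes the transmitter and acetylcholinesterase (ACHE) splits it. LSD1, encoded by KDM1A, works with the corepressor CoREST, which the repressor REST can bring to neuronal genes.

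In the RefSeq gene order CHRNA5, CHRNA3 and CHRNB4 follow each other with no other protein-coding gene between them, and CHAT lies next to SLC18A3, the vesicular acetylcholine transporter. Promoter windows of 300 bases, from 250 before to 50 after a start site, were matched by symbol in RefSeq (GRCh38.p14) for 8 of the 10 genes, all but CHRNA2 and CHRNA5. Those of CHRNA3 and CHRNB4 are printed because these neighbours form one receptor, and that of CHRNB2 because its probe sets differed from each other. Capitals mark GC boxes, the letters GGGCGG or CCGCCC on the strand shown.
CHRNA3, chr15:78620947-78621246, minus strand: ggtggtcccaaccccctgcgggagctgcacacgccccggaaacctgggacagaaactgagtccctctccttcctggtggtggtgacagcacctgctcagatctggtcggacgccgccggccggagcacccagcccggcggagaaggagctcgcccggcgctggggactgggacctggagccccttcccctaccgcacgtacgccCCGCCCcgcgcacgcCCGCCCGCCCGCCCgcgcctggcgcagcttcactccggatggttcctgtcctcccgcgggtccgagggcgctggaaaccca
CHRNB4, chr15:78641161-78641460, minus strand: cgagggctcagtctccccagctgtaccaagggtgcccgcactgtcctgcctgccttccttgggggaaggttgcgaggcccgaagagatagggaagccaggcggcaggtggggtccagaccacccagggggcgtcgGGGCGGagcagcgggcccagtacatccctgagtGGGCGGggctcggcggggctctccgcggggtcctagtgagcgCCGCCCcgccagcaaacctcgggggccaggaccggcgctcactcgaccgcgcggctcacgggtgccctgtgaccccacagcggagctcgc
CHRNB2, chr1:154567528-154567827, plus strand: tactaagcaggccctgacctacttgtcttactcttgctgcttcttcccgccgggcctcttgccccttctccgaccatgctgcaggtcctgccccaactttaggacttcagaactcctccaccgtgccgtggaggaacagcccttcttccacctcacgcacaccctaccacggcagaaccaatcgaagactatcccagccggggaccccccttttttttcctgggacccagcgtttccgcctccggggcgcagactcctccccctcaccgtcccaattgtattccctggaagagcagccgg
The CHRNA3 window held 4 GC boxes, 3 of which overlap each other, the CHRNB4 window held 3, and the CHRNB2 window held 0. A GC box on either strand was present in 45% of the 35116 windows of this length. The E box CAGCTG, which reads the same on both strands, occurred 1 time in the CHRNB4 window and in 17.9% of all windows. The half-sites TCAGCACC and GGACAGC, which resemble parts of the element bound by REST, were sought on both strands. They matched none of the 3 windows, and they were present in 1.67% and 6.03% of all windows. A match is a description of the letters only.

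The target was lower on both siLSD1 arrays. KDM1A had signals of 9.79 and 9.78 in siControl and 8.40 and 8.54 in siLSD1, or 40.1% of the control level. Its unadjusted p in limma was 4.68e-05, the smallest of all probe sets. Its adjusted p over all probe sets was nevertheless 0.98 in limma. The threshold of 0.05 was passed by 0 of 54613 probe sets (0%), while 2238 (4.1%) had an unadjusted p under 0.05 in limma. Correlations between arrays ran from 0.909 to 0.928 over all probe sets, and the 3 lowest were those of siControl replicate 1. Of 7 noradrenergic neuroblast markers with a probe set 6 were not dim, TH being the exception. Here a probe set is called dim when its mean lies below 4.02, the median of all probe sets. The Schwann and glial markers (3 of 3) and genes of other organs (7 of 7) were dim, with mean levels up to 2.42, although single arrays reached 4.92. The fibroblast markers were not dim (5 of 5), with a list mean of 6.66 and 6.15 in siControl and 6.47 and 6.57 in siLSD1, and 1 of 5 blood markers was not dim. The cells were all of one established line, and neither the source of these marker signals nor its part in the results below was tested.

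Among the 20 cholinergic probe sets, 13 were not dim and 7 were. After LSD1 knockdown 9 had a higher and 11 a lower mean, with a median log2 difference of -0.020 against 0.00082 over all probe sets. Centring the arrays on their medians gave 12 higher and 8 lower means, and the median became 0.13 where that of all probe sets was 0.12. No probe set of the 10 genes passed the test (0 of 20 in limma, adjusted p from 0.98 to 0.999). An unadjusted p under 0.05 in limma was found for 2 of 20, against 4.1% of all probe sets. The siLSD1 arrays lay above both siControl arrays in 4 of 20 (20%) and below both in 1 of 20 (5%). Over all probe sets these shares were 16.6% and 16.1%. The difference between groups exceeded the gap between the arrays of each group in 2 of 20 (10%), against 19.3% of all probe sets. These 2 were the probe set of CHRNA2 and 1 of CHRNB2. The 95% interval of a difference had a median half-width of 0.78 among the 13 probe sets that were not dim, or 1.71-fold, and of 2.02 among the 7 dim ones, or 4.06-fold.

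**Figure D1:**
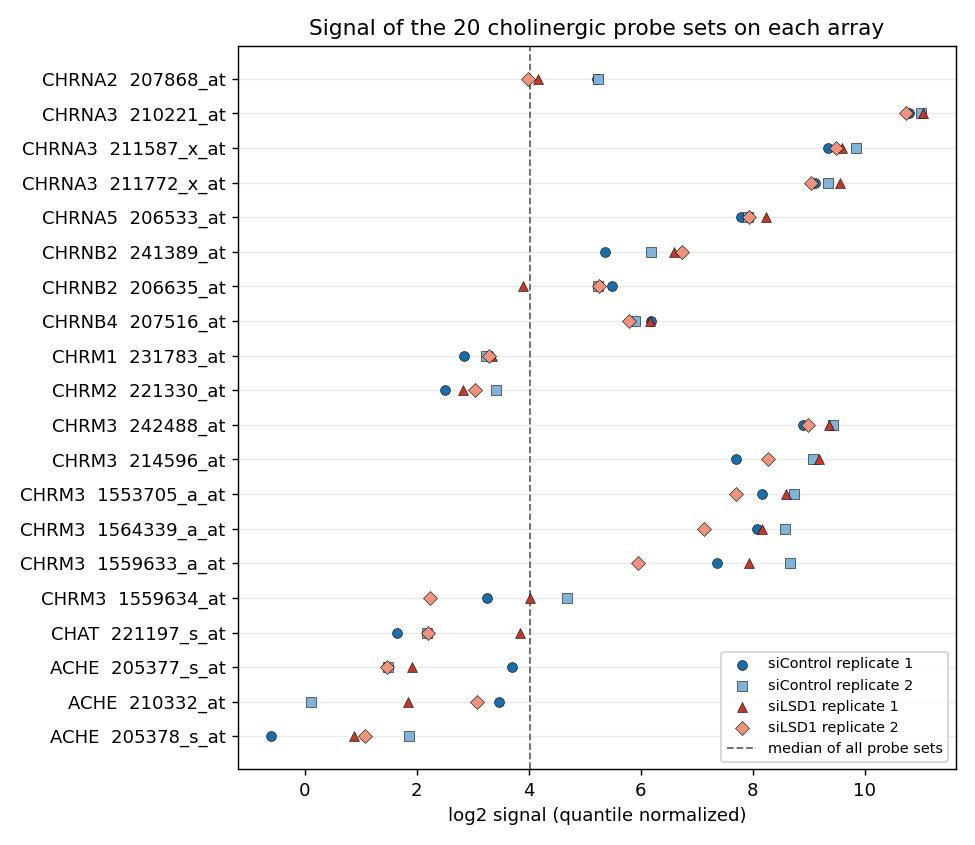
Log2 signal (horizontal axis) of each of the 20 probe sets (rows) on the 4 arrays, with circles and squares for siControl and triangles and diamonds for siLSD1. The dashed line is the median of all probe sets, 4.02, and the probe sets of CHAT, ACHE, CHRM1 and CHRM2 lie to its left on every array.

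**Figure D2:**
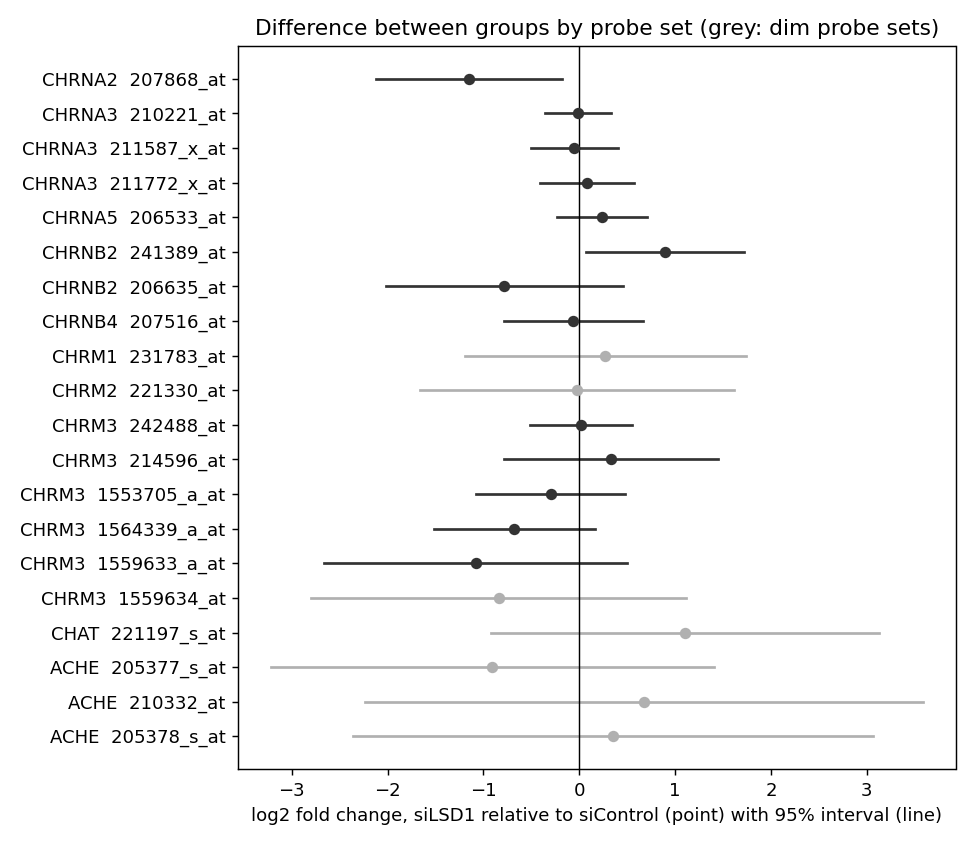
Log2 difference of siLSD1 relative to siControl (points) with its 95% interval in limma (lines) for each probe set, dim probe sets in grey. The intervals of CHRNA2 207868_at and CHRNB2 241389_at do not reach 0, and neither of them passed the threshold after adjustment.

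CHRNA2, a nicotinic alpha subunit that pairs with beta subunits in some brain receptors, showed the largest difference of the 20 in size. Its only probe set, 207868_at, read 5.21 and 5.24 in siControl and 4.16 and 3.99 in siLSD1. The control arrays were nearly equal, both siLSD1 arrays were lower, and siLSD1 replicate 2 lay just below the median of all probe sets. The group means were 5.23 ± 0.018 and 4.08 ± 0.12 (SD, n = 2), a log2 difference of -1.15 with a standard error of 0.41 and a 95% interval from -2.12 to -0.18. This amounts to 45.1% of the control signal, at an adjusted p of 0.98 in limma. The value stayed between -1.24 and -1.06 when any 1 array was left out. With 2 arrays per group that range follows from the gaps between the arrays of each group, so it is no separate support.

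CHRNA3, the alpha subunit of ganglionic receptors, was measured by 3 bright probe sets and none of them separated the groups. The probe set 210221_at read 10.80 and 11.01 in siControl and 11.04 and 10.74 in siLSD1. The lowest and the highest value thus both came from siLSD1 arrays. Its log2 difference was -0.015, with a 95% interval from -0.36 to 0.33. In fold terms a fall below 0.778 or a rise above 1.26 of the control level lies outside that interval. The probe set 211587_x_at read 9.34 and 9.84 in siControl and 9.59 and 9.49 in siLSD1, a log2 difference of -0.050. The probe set 211772_x_at read 9.11 and 9.34, then 9.56 and 9.04, a log2 difference of 0.077. Sets with the suffix _x_at hold probes that can match other sequences. The differences of 210221_at and 211587_x_at were 0.11 and 0.13 under median centring, where the median of all probe sets was 0.12.

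CHRNA5, an accessory alpha subunit that joins channels made of other subunits, had a slightly higher mean after knockdown. Its only probe set, 206533_at, read 7.79 and 7.91 in siControl and 8.25 and 7.93 in siLSD1. The groups did not overlap, but siLSD1 replicate 2 exceeded the higher control by less than the controls differed from each other. The log2 difference was 0.23 with a 95% interval from -0.24 to 0.71 (adjusted p = 0.98 in limma). It was 0.077 without siLSD1 replicate 1, 0.39 without siLSD1 replicate 2 and 0.46 under median centring, where the median of all probe sets was 0.12.

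CHRNB2, the beta subunit of the most common brain nicotinic receptors, was measured by a pair of probe sets that disagreed. The brighter, 241389_at, was designed on an expressed sequence tag and read 5.36 and 6.19 in siControl and 6.59 and 6.75 in siLSD1. Both siLSD1 arrays lay above both controls, and siControl replicate 1 stood lowest. The group means of 5.77 ± 0.59 and 6.67 ± 0.11 (SD, n = 2) gave a log2 difference of 0.90, with a 95% interval from 0.074 to 1.72, or 1.86-fold (adjusted p = 0.98 in limma). Without siControl replicate 1 the difference was 0.48. The other, 206635_at, was designed on a RefSeq mRNA and read 5.49 and 5.25 in siControl and 3.91 and 5.26 in siLSD1. Here siLSD1 replicate 1 alone was low, and siLSD1 replicate 2 lay between the controls. Its log2 difference was -0.78, with a 95% interval from -2.02 to 0.45. It was -0.11 without siLSD1 replicate 1 and -1.46 without siLSD1 replicate 2.

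The difference between the CHRNB2 probe sets on the same array, 241389_at minus 206635_at, was examined after these values had been seen. It was -0.13 and 0.94 in siControl and 2.69 and 1.49 in siLSD1. It was thus larger on both siLSD1 arrays, by 1.68 on average. A two-sided exact permutation test gave p = 0.333, the smallest that 2 against 2 arrays allow, so the test cannot decide. What sets the probe sets apart was not tested.

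CHRNB4, the beta subunit that joins CHRNA3 in ganglionic receptors, showed no separation. Its probe set 207516_at read 6.18 and 5.89 in siControl and 6.17 and 5.78 in siLSD1, so that the values of the groups alternated. The log2 difference was -0.060 with a 95% interval from -0.79 to 0.67, and 0.13 with arrays centred on their medians, close to the 0.12 of all probe sets. Over the 8 probe sets of the 5 nicotinic subunit genes, 3 had a higher mean and the median log2 difference was -0.033.

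Among the muscarinic receptors, CHRM3 was bright. Each of its probe sets differed by more between the arrays of at least 1 group than between the groups. This is not particular to CHRM3, as the difference exceeded both gaps in only 19.3% of all probe sets. CHRM3 is the receptor through which acetylcholine raises calcium in many glands and smooth muscles. It was covered by 6 probe sets, 5 of them not dim, with log2 differences from -1.08 to 0.33 and 0 of 6 separating the groups. Over all probe sets the groups separated in 16.6% with siLSD1 higher and in 16.1% with siLSD1 lower. The brightest, 242488_at, read 8.90 and 9.43 in siControl and 9.37 and 8.995 in siLSD1. The log2 difference was 0.021, with a 95% interval from -0.51 to 0.55. The probe set 214596_at read 7.71 and 9.09 in siControl and 9.18 and 8.27 in siLSD1, with siControl replicate 1 the lowest. Its log2 difference of 0.33 was -0.36 without that array.

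The other CHRM3 probe sets had lower means in siLSD1, and on each of them siLSD1 replicate 2 was the lowest array. The probe set 1553705_a_at read 8.16 and 8.73 in siControl and 8.59 and 7.71 in siLSD1, a log2 difference of -0.30. The probe set 1564339_a_at read 8.09 and 8.58, then 8.18 and 7.13, a log2 difference of -0.68 with a 95% interval from -1.52 to 0.17. In both, siLSD1 replicate 1 lay between the control arrays. The probe set 1559633_a_at read 7.36 and 8.67, then 7.93 and 5.94, a log2 difference of -1.08 with a 95% interval from -2.66 to 0.50 (adjusted p = 0.98 in limma). The dim probe set 1559634_at read 3.25 and 4.69, then 4.02 and 2.24, a log2 difference of -0.84. Without siLSD1 replicate 2 these 4 differences were 0.14, -0.16, -0.090 and 0.048, and without siLSD1 replicate 1 they were -0.74, -1.20, -2.07 and -1.73.

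Across the 6 CHRM3 probe sets, siControl replicate 2 was the highest array in 5 and siLSD1 replicate 1 in 1. The lowest array was siLSD1 replicate 2 in 4 and siControl replicate 1 in 2. Measured from each probe set's mean, the median deviation in siControl was -0.21 for replicate 1 and 0.55 for replicate 2. In siLSD1 it was 0.37 for replicate 1 and -0.72 for replicate 2. The same arrays stood high and low for CHRNA3, with median deviations of -0.15 and 0.12 in siControl and 0.15 and -0.16 in siLSD1. Probe sets of one gene share the RNA of each array, so they are not replicates of the condition. The probe sets also differed in how far they moved. On the same array 242488_at exceeded 1559633_a_at by 1.53 and 0.76 in siControl and by 1.45 and 3.05 in siLSD1, a spread of 2.29 over the arrays (two-sided exact permutation p = 0.667). The probe set 1559633_a_at exceeded 1559634_at by 4.12 and 3.98 in siControl and by 3.91 and 3.71 in siLSD1, a spread of 0.41 over the arrays. The difference between these probe sets was smaller on both siLSD1 arrays, by 0.24 on average (two-sided exact permutation p = 0.333). As 2 against 2 arrays allow no smaller p, this test cannot decide. These contrasts were also chosen after the values had been seen.

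**Figure D3:**
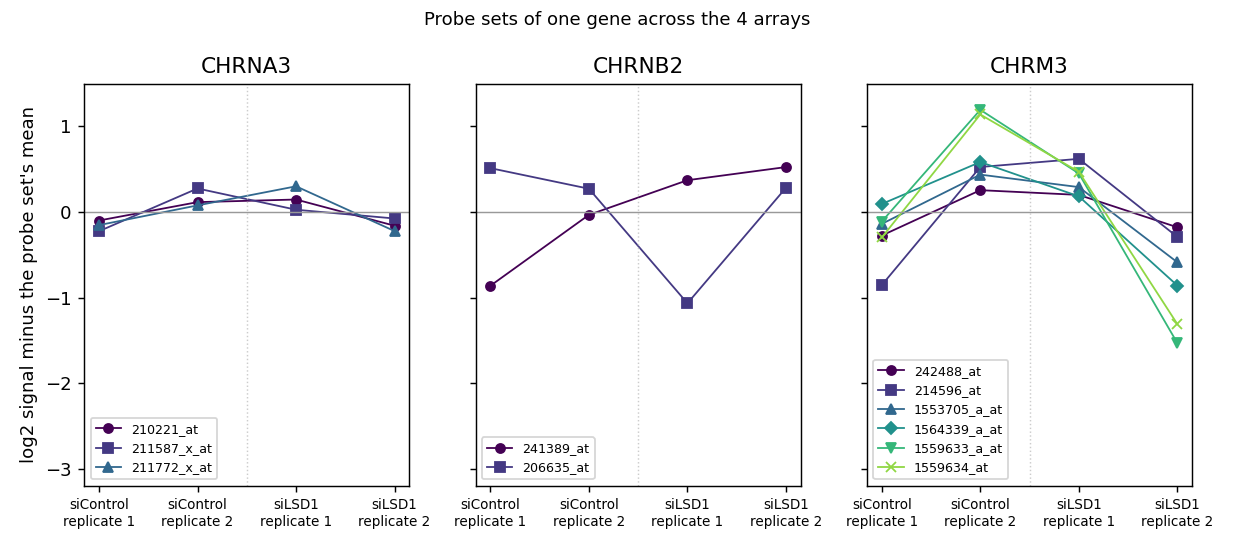
Deviation of each probe set from its own mean (vertical axis, log2) on the 4 arrays (horizontal axis) for CHRNA3, CHRNB2 and CHRM3, with lines that only link the points of a probe set. The 6 CHRM3 probe sets are all above their mean on siControl replicate 2 and below it on siLSD1 replicate 2, and the CHRNB2 probe sets lie on opposite sides of their means on 3 of the 4 arrays.

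CHRM1 and CHRM2 were dim. CHRM1, the main muscarinic receptor of the cerebral cortex, read 2.84 and 3.24 in siControl and 3.34 and 3.29 in siLSD1 on 231783_at. The groups did not overlap, although the nearest values were 0.041 apart and the controls 0.40 apart. The log2 difference was 0.27 with a 95% interval from -1.19 to 1.74. It was 0.070 without siControl replicate 1, 0.47 without siControl replicate 2 and 0.050 under the deposited scaling. CHRM2, the receptor that slows the heart, read 2.50 and 3.41 in siControl and 2.82 and 3.04 in siLSD1 on 221330_at, with both siLSD1 values inside the range of the controls. Its log2 difference was -0.025, with a 95% interval from -1.67 to 1.62. The intervals reach upward to 3.34-fold for CHRM1 and 3.07-fold for CHRM2.

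The acetylcholine enzymes were dim on all 4 of their probe sets. CHAT read 1.66 and 2.19 in siControl and 3.85 and 2.21 in siLSD1 on 221197_s_at. The siLSD1 arrays lay above the controls, replicate 1 by far and replicate 2 by 0.015. The group means of 1.92 ± 0.38 and 3.03 ± 1.16 (SD, n = 2) gave a log2 difference of 1.10 with a 95% interval from -0.92 to 3.12 (adjusted p = 0.98 in limma). Without siLSD1 replicate 1 the difference was 0.28, and without siLSD1 replicate 2 it was 1.92. SLC18A3, the neighbour of CHAT, is described with the pathway genes below.

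ACHE gave no common direction. The probe set 205377_s_at read 3.71 and 1.49 in siControl and 1.91 and 1.47 in siLSD1. The probe set 210332_at read 3.47 and 0.11, then 1.84 and 3.08, and 205378_s_at read -0.61 and 1.87, then 0.88 and 1.08. On each of the 3 the control arrays were farther apart than the siLSD1 arrays. The log2 differences were -0.91, 0.67 and 0.35, and the widest interval ran from -2.24 to 3.59. Each of these differences turned when one of the control arrays was left out.

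**Figure D4:**
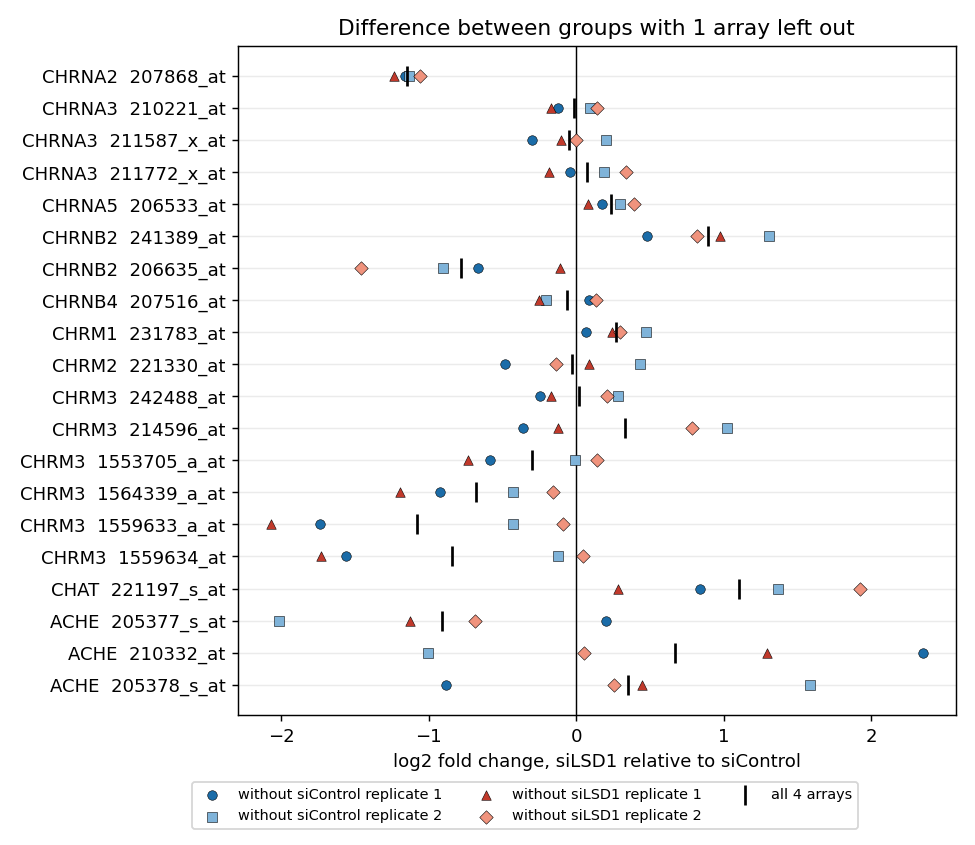
Log2 difference of siLSD1 relative to siControl for each probe set with all 4 arrays (vertical ticks) and with 1 array left out (symbols). The values for CHRNA2 stay between -1.24 and -1.06, whereas those of ACHE 210332_at run from -1.01 to 2.35. Both ranges follow from the gaps between the arrays of each group.

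Other genes of the cholinergic system were read from 8 lists, each gene by its brightest probe set. Of 60 listed genes, 54 had a probe set of their own, and 36 of these were not dim. The adjusted threshold was passed by 0 of 54 in either direction in limma. An unadjusted p under 0.05 in limma was found for 1 of 54, the dim GFRA2, against 4.1% of all probe sets. This neurturin receptor read 0.41 and 0.23 in siControl and 3.36 and 3.03 in siLSD1. Means were higher in 29 and lower in 25, with a median log2 difference of 0.030. The groups did not overlap in 10 higher and 9 lower genes, against 16.6% and 16.1% of all probe sets.

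Among 9 other nicotinic subunits, 2 were higher and 7 lower, and 3 were not dim. CHRNB1, the beta subunit of muscle receptors, read 4.82 and 5.36 in siControl and 5.22 and 4.86 in siLSD1. CHRNA6 had a log2 difference of -0.37 and CHRNG, a subunit of fetal muscle receptors, of 0.42. The probe set shared by CHRNA7 and its partial copy CHRFAM7A names more than 1 gene and was not used. The muscarinic receptors CHRM4 and CHRM5 were both dim, with log2 differences of -1.67 and -0.80. CHRM4 read 5.51 on siControl replicate 1 and between 2.07 and 2.22 on the other arrays.

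Of 10 genes that make, carry or split acetylcholine 8 were not dim, and their log2 differences lay between -0.17 and 0.66. ACLY, which supplies acetyl-CoA, had a log2 difference of -0.17, the pyruvate dehydrogenase subunit PDHA1 of 0.21 and the choline transporter SLC44A1 of -0.087. BCHE, the butyrylcholinesterase that also splits acetylcholine, read 9.06 and 8.80 in siControl and 8.75 and 8.78 in siLSD1, a log2 difference of -0.17. PRIMA1, the membrane anchor of acetylcholinesterase, read 8.34 and 7.97, then 8.26 and 8.65, a log2 difference of 0.30. CHKB, a choline kinase, had a log2 difference of 0.043. SLC18A3 read 5.25 and 6.09 in siControl and 6.58 and 6.09 in siLSD1. Its log2 difference was 0.66 with a standard error of 0.38 (adjusted p = 0.98 in limma), and the groups overlapped. SLC5A7, the high-affinity choline transporter, was dim.

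Receptor chaperones, anchors and modulators did not pass the test either (0 of 11, 6 of them not dim). TMEM35A, a chaperone of neuronal nicotinic receptors, read 7.47 and 7.35 in siControl and 7.58 and 7.47 in siLSD1, a log2 difference of 0.11. RIC3, another chaperone, read 4.78 and 5.02, then 4.57 and 4.45, a log2 difference of -0.39. The modulators LYNX1 and LYPD6 had log2 differences of 0.055 and 0.066. UBXN2A and the heparan sulfate proteoglycan AGRN had values of -0.095 and 0.35.

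Downstream of the muscarinic receptors, all 9 genes with a probe set were not dim, with log2 differences from -0.35 to 0.22. RGS4, a regulator that shortens G protein signals, had a value of -0.21, the G protein subunits GNAQ and GNA11 of -0.066 and -0.35, the calcium channel ITPR1 of 0.11, RGS2 of 0.15 and the phospholipase PLCB4 of 0.17.

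Genes around the nicotinic cluster on chromosome 15 were read as well. MORF4L1 and the proteasome gene PSMA4 had log2 differences of 0.091 and -0.065. HYKK, a hydroxylysine kinase, read 4.93 and 4.64 in siControl and 4.26 and 4.12 in siLSD1, a log2 difference of -0.59 with a standard error of 0.43.

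Among factors tied to cholinergic differentiation, ISL1, a homeodomain protein of sympathetic and motor neurons, had a log2 difference of -0.056. The cytokine receptor subunits IL6ST, LIFR and CNTFR had values of 0.027, -0.21 and 0.044. LHX8, a homeodomain protein of forebrain cholinergic neurons, read 4.91 and 5.06 in siControl and 5.49 and 5.93 in siLSD1, a log2 difference of 0.73 with a standard error of 0.36 (adjusted p = 0.98 in limma). For the repressor itself, REST had a log2 difference of 0.12 by its brightest probe set and RCOR1, which encodes CoREST, of 0.26. The other REST probe sets were dim, with log2 differences of 1.90 and -0.35. The other RCOR1 probe set was dim as well, with a log2 difference of -1.25.

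**Figure D5:**
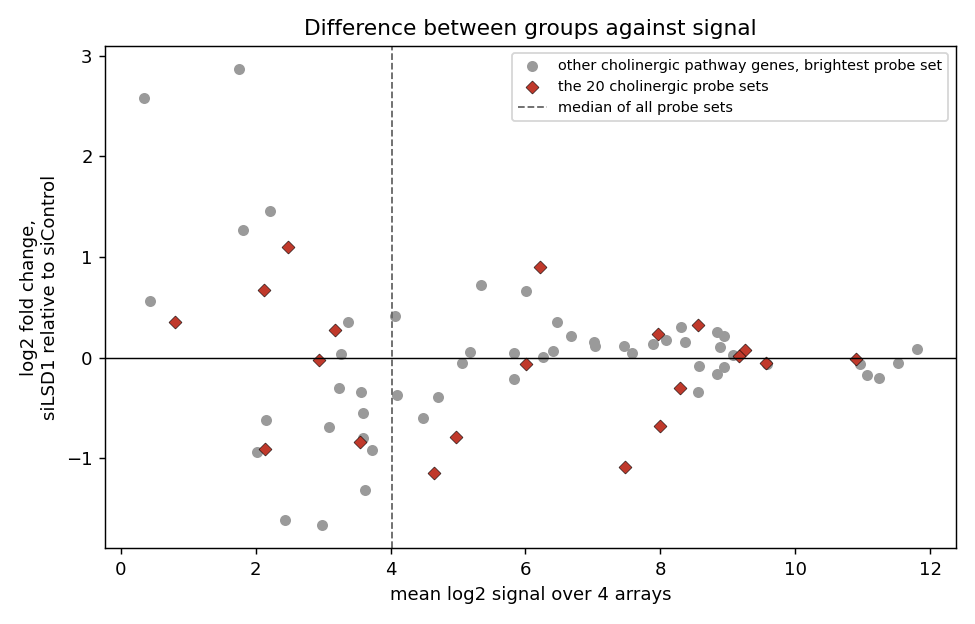
Log2 difference of siLSD1 relative to siControl (vertical axis) against the mean log2 signal (horizontal axis) for the 20 cholinergic probe sets (diamonds) and the 54 other pathway genes (circles). Of the 13 cholinergic probe sets to the right of the dashed line at 4.02, 2 are at least 2-fold apart, and of the 7 to its left, 1 is. A difference of at least 2-fold was found in 2.69% of all probe sets that were not dim, against 18.2% of all probe sets. The 2 to the right are CHRNA2 207868_at and CHRM3 1559633_a_at. Neither passed the threshold after adjustment, and on the CHRM3 probe set the groups overlapped.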

How the data were processed

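Total RNA of 4 SH-SY5Y cultures was labelled with biotin and hybridized to Affymetrix arrays, per the labels' protocols. The deposited values were 1 log2 signal per probe set and array. Neither the sources used here nor the table itself name the authors' summary method or software. The log base was found from the values, whose base-2 antilogs had a 2% trimmed mean of 100.03 on each array. Array medians of the deposited values ran from 4.00 to 4.27. After 62 control probe sets were left out, arrays were quantile normalized, which removes any difference in overall signal.

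Groups and replicate numbers came from the titles, and that of siLSD1 replicate 2 names LSD without its number. The p-values speak only to repeat transfections of one line. No arrays held identical values (0 pairs). All 54613 probe sets were fitted in R 4.3.3 with limma 3.58.1 (lmFit, eBayes with trend, two-sided, Benjamini-Hochberg over all, threshold 0.05). The moderated test had 6.94 degrees of freedom. The script was first tested on simulated data, where calls were required only in a case with a small constant spread. That case does not show what could be called in these data. With 2 arrays per group precision is limited by their number. Probe sets were named through the platform annotation of GEO and checked by Entrez identifier against RefSeq symbols of GRCh38.p14, where 41043 of 41091 with 1 symbol matched.

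The members and lists were chosen with earlier results of these data known. Every member was to be named. In each pathway list up to 6 genes that were not dim were to be named, in the order of mean level. CHRM4, CHRM5, SLC5A7, SLC18A3, GFRA2 and the dim REST and RCOR1 probe sets fall outside that rule and were named after their values were seen. Alternatives were the deposited scaling, median centring, a filter at the 40th percentile, 1 probe set per gene, no trend, a replicate block and leaving out each array.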

Additional observations from a re-analysis of the deposited data

How the results depend on the processing

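With 2 arrays per group only large differences could be measured, and dim probe sets gave the widest intervals. No setting called a probe set of the 10 genes or a pathway gene, and 1 probe set of the whole table was called without siControl replicate 2 (0 to 1 with 1 array left out). Under the deposited scaling 2 of 20 cholinergic probe sets had both siLSD1 arrays higher and 2 had both lower, against 13.2% and 19.6% of all probe sets, whose median moved to -0.057. With the 40th percentile filter 2 of the 14 that remained were higher and 1 lower, against 16.7% and 16% of all that remained. With 1 probe set per gene 2 of 6 were higher and 1 lower, against 16.6% and 15.1% of the 11865 fitted. Both settings held only 6 of the 10 genes, without CHRM1, CHRM2, CHAT and ACHE. The replicate numbers do not pair the transfections in the labels, and deviations of same-numbered arrays correlated at 0.016. With the replicate block 0 of 20 were called. Within both replicate numbers 4 of 20 were higher in siLSD1 (20%) and 3 lower (15%), against 24.7% and 24.2% of all probe sets. With 1 array left out, which makes separation easier, 4 to 9 were higher and 2 to 9 lower, against 30.4% to 35.1% and 31.3% to 37.6% of all probe sets.

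The filter, 1 probe set per gene, no trend and the replicate block leave a probe set's difference as it is. Of the 120 differences that the other alternatives could move, 98 kept their direction and 22 turned. These counts are partly fixed by arithmetic and are no separate support. The values without either array of a group average to the full difference, so at least 1 of them keeps its direction. The deposited scaling and median centring differ by the same shift for every probe set. Under median centring 3 turned, CHRNA3 210221_at to 0.11, 211587_x_at to 0.13 and CHRNB4 207516_at to 0.13, near the 0.12 to which the median of all probe sets moved. The other 19 came from leaving out 1 array and concerned 12 probe sets. Such turns follow from the gaps between the arrays of each group. Leaving out 1 array gave -0.17 to 0.14 for CHRNA3 210221_at, -0.30 to 0.20 for 211587_x_at and -0.19 to 0.34 for 211772_x_at. It gave -0.25 to 0.13 for CHRNB4 and -0.48 to 0.43 for CHRM2. For CHRM3 it gave -0.24 to 0.29 for 242488_at, -0.36 to 1.02 for 214596_at, -0.74 to 0.14 for 1553705_a_at and -1.73 to 0.048 for 1559634_at. For ACHE it gave -2.02 to 0.20 for 205377_s_at, -1.01 to 2.35 for 210332_at and -0.89 to 1.59 for 205378_s_at.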
